A study of Mus musculus with 6 samples.

Results

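A set of 10 genes that code for secreted factors of neurons, or for the machinery that packs and cleaves them, was followed through a short rise of cyclic AMP. The genes were taken by symbol from the deposited table of counts per gene, and 10 of 10 were found among its 37411 rows: the growth factor genes Bdnf and Inhba, the granin family genes Vgf, Chga, Chgb, Scg2 and Scg3, the pentraxin genes Nptx1 and Nptx2, and the convertase gene Pcsk1. All 10 had enough counts to be among the 16233 genes tested. RNA came from primary hippocampal neurons of the outbred CD-1 IGS mouse strain, prepared from pups on postnatal day 0 and kept for 16 days in vitro. No transgene or deletion is named for either group. In the forskolin group the cultures received 50 µM forskolin for 30 min, and in the control group they received the same volume of its solvent, dimethyl sulfoxide (DMSO). Forskolin activates adenylyl cyclase, which makes cyclic AMP. Each group had 3 libraries, numbered 1 to 3 for DMSO and 4 to 6 for forskolin. The labels do not say whether the libraries of a group came from separate litters or cultures, so the p-values measure the spread between libraries, which may be technical.

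Neurons sort peptide hormones and growth factors into dense-core vesicles and release them when they fire. Granins are acidic proteins that help to form these vesicles and are themselves cut into bioactive peptides, and the prohormone convertase made from Pcsk1 does part of that cutting. Cyclic AMP activates protein kinase A, which phosphorylates the transcription factor CREB. CREB binds the cyclic AMP response element (CRE), with the consensus TGACGTCA, and several of these genes are known for such an element near their start and for induction by neuronal activity.

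RefSeq promoter windows, from 250 bases before to 50 after an annotated start on GRCm38.p6, were matched for 7 of the 10 genes (13 windows, of which 7 belong to Bdnf). Vgf, Nptx1 and Nptx2 were not matched. The windows were searched on both strands for the full element TGACGTCA, which reads the same on either strand, and for its shorter core TGACG, which the full element also contains. The full element was in 1 window each of Scg2, Chgb and Pcsk1, against 1.79% of all 32851 windows, and the core was in 6 of the 13 windows, against 20.8% of all windows. The windows that hold either are shown because they are the candidate cyclic AMP elements of genes whose levels are given next, with the matches in capitals. A match is a run of letters, not evidence of binding.

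The windows below are written 5′ to 3′ on the gene's strand, and the start lies after base 250. Scg2 is at chr1:79439977-79440276 (minus strand), Chgb at chr2:132781392-132781691 (plus), Pcsk1 at chr13:75089607-75089906 (plus), Chga at chr12:102554691-102554990 (plus), Scg3 at chr9:75684007-75684306 (minus), and the matching Bdnf window, the third of 7 along the gene, at chr2:109692186-109692485 (plus).
Scg2: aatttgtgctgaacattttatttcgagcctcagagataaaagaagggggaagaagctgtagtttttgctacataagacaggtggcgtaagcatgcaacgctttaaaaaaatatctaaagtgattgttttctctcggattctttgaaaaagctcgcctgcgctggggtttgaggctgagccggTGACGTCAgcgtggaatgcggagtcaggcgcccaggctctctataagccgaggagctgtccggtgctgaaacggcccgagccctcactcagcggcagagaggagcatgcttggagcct
Chgb: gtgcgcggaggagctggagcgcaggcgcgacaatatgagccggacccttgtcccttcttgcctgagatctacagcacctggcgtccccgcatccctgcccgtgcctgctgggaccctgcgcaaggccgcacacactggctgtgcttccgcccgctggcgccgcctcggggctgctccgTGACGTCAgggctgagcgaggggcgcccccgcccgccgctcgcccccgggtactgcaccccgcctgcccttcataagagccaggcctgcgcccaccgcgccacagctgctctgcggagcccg
Pcsk1: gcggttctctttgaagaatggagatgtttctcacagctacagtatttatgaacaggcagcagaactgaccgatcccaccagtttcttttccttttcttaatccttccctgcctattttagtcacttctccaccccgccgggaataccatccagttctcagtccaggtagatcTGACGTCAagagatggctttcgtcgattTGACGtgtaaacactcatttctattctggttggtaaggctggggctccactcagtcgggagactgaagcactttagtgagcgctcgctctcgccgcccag
Chga: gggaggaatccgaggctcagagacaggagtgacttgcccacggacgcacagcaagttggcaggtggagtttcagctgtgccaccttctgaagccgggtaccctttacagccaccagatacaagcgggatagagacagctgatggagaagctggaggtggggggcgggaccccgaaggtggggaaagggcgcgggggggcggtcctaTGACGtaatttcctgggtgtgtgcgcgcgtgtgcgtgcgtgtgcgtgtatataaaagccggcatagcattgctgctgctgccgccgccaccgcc
Scg3: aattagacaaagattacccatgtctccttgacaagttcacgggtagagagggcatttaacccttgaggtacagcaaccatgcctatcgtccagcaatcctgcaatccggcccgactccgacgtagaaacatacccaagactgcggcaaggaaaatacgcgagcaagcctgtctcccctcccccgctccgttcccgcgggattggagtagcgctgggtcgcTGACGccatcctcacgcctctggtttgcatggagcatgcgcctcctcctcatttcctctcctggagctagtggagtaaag
Bdnf: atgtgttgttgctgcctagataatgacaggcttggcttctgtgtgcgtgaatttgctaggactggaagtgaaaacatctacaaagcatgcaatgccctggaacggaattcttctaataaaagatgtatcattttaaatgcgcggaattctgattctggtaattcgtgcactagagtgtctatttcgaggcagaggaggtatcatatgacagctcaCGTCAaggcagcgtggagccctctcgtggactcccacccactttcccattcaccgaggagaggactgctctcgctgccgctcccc

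The full element began 68 bases before the start in Scg2, 72 in Chgb and 78 in Pcsk1, so that it sat at nearly the same distance in all 3 genes. Pcsk1 also held a separate core 50 bases before its start. The core alone began 44 bases before the start in Chga, 30 in Scg3 and 35 in the Bdnf window. The single window of Inhba and the other 6 of Bdnf held neither sequence.

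The libraries differed in more than treatment. Total counts ran from 28342764 to 35304310 with DMSO and from 34139191 to 47548379 with forskolin, and mitochondrial ribosomal RNA took 14.0 to 23.7% of the counts with DMSO and 26.9 to 33.3% with forskolin. The 12 neuron markers were all detected in every library, with a summed level of 4099 to 5338 CPM (read counts brought to the same library size) under DMSO and 3126, 3374 and 5006 CPM in forskolin libraries 4, 5 and 6. Of these markers edgeR called 2 lower, Grin1 and Rbfox3 (adjusted p = 0.0306 and 0.0392). The 12 microglia markers summed to 23.1 to 34.8 CPM in the DMSO libraries, to 237 and 401 CPM in libraries 4 and 5, and to 25.1 CPM in library 6. None of these 12 was at 0 in any library. Summed oligodendrocyte lineage markers were at 822 to 913 CPM with DMSO and at 1077, 1560 and 647 CPM in libraries 4, 5 and 6, and summed astrocyte markers at 7146 to 7868 CPM and 7069 to 8673 CPM. Summed vascular and fibroblast markers were at 91.6 to 200.3 CPM with DMSO and 84.1 to 262 CPM with forskolin. Library 6 correlated more closely with DMSO library 3 (r = 0.983 across genes, which are not independent replicates) than with libraries 4 and 5 (0.943 and 0.940). Levels also followed the GC content of the genes: set against the DMSO mean, they had a Spearman correlation with GC content across genes of 0.28, 0.29 and -0.50 under DMSO and -0.33, -0.43 and -0.61 under forskolin (libraries 1 to 3 and 4 to 6). In bulk RNA, fewer cells of a type and less RNA per cell cannot be told apart.

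Of the 10 genes, Vgf was the only 1 called by edgeR's quasi-likelihood test with Benjamini-Hochberg adjustment over all tested genes, and it fell. Among all tested genes 1.51% were called in either direction and 1.34% were called lower. None of the 10 was called higher by edgeR, and the 3 with an unadjusted p under 0.05 (Vgf, Chga and Nptx1) were all lower, where 22.3% of all tested genes had such a p. DESeq2 called 2 of the 10, both lower (Vgf and Chga), where it called 10.9% of all tested genes, and limma with library quality weights called 5, all lower (Vgf, Chga, Chgb, Nptx1 and Nptx2), where it called 41.9%. In the limma fit library 6 had a quality weight of 0.156, against 0.994 to 2.27 for the other libraries, so that it counted little there. The median log2 fold change of the 10 genes was -0.22, and that of all genes tested was 0.02. In the same libraries Fos, a standard marker of the early transcriptional response, rose from 101 to 186 CPM in the DMSO libraries to 448 to 902 CPM under forskolin (log2 fold change 2.46, edgeR adjusted p = 0.0376). The other reference genes of this response, Nr4a1, Arc and Npas4, were higher by 2.20, 1.69 and 1.38 (log2). They did not pass the threshold (edgeR adjusted p = 0.0652, 0.0660 and 0.219). Npas4 was at 105 CPM in DMSO library 1, against 25.5 and 24.9 CPM in libraries 2 and 3. The authors' deposited table of 132 genes, all with a log2 fold change of at least 1.501, held 0 of the 10 and 0 of the 57 genes of the pathway lists described further on.

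**Figure D1:**
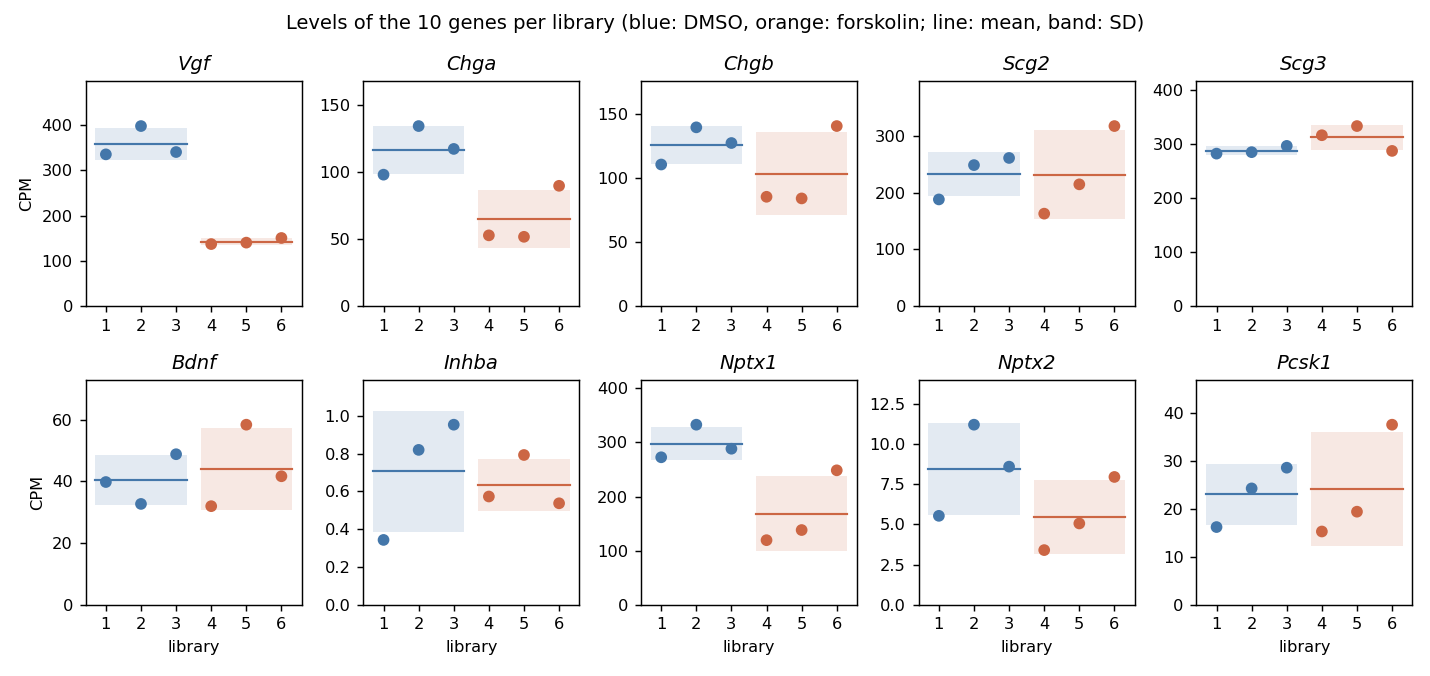
Level of each of the 10 genes (y axis, CPM, from 0) in each library (x axis), with 3 DMSO libraries in blue and 3 forskolin libraries in orange; the line is the group mean and the band its SD. Vgf is the gene with a clear gap between tight groups (335 to 397 against 137 to 150 CPM), whereas forskolin library 6 lies apart from libraries 4 and 5 in Chgb, Scg2, Nptx1 and Pcsk1.

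Vgf codes for a granin-like precursor whose peptides act in synaptic plasticity and energy balance, and lies at chr5:137026392-137033351 on the plus strand of GRCm38, the build of all gene positions here. Its level was 335, 397 and 340 CPM under DMSO (libraries 1, 2 and 3, in this order throughout) against 137, 140 and 150 CPM under forskolin (libraries 4, 5 and 6). Each forskolin library was thus below every DMSO library, and the 3 forskolin values lay close together. The means were 357 ± 34.7 and 143 ± 7.02 CPM (SD, n = 3 each), and the fitted level with forskolin was 39.9% of that with DMSO. The log2 fold change was -1.33 ± 0.13 (SE), with a 95% interval of -1.62 to -1.03 (edgeR adjusted p = 0.0204). By p-value Vgf ranked 12 among all tested genes. Leaving out any 1 of libraries 1 to 5 gave log2 fold changes of -1.37 to -1.22 for Vgf with edgeR adjusted p-values of 0.123 to 0.242, in fits that called 0 genes and had 1945 to 3216 at an unadjusted p under 0.05.

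The Vgf transcript is rich in G and C, at 64.1% of its longest annotated form, the highest of the 10. A smooth trend of level on GC content was fitted in each library, and its value at the GC content of Vgf, relative to the DMSO mean, was -0.51, -0.68 and -1.28 on the log2 scale in libraries 4, 5 and 6. The measured log2 ratios of Vgf to its DMSO mean in these libraries were -1.38, -1.35 and -1.24. Vgf was therefore lower than the trend in libraries 4 and 5 and level with it in library 6. With the trend removed from every library, the log2 fold change was -0.46 with an interval of -1.06 to 0.14 (edgeR adjusted p = 0.504), a fit in which edgeR called 0 genes and 1792 had an unadjusted p under 0.05. With the trend removed and library 6 left out, it was -0.77 (edgeR adjusted p = 0.00716).

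In library 6 the neuron markers were mixed. Of the 12, 5 were below every DMSO library (Grin1, Rbfox3, Tubb3, Slc17a7 and Syn1, with GC contents of 56.6 to 59.4%). Another 5 were above (Gad1, Gad2, Nefl, Stmn2 and Syt1, with GC contents of 41.3 to 48.8%). Their sum over all 12 lay within the DMSO range. The part of the GC trend in this split was not tested. The microglia marker sum of library 6 was also within the DMSO range, and its Vgf level (150 CPM) was close to those of libraries 4 and 5. With libraries 4 and 5 left out, so that library 6 alone stood for forskolin and was assumed to vary as the DMSO libraries did, the log2 fold change of Vgf was -1.21 (edgeR adjusted p = 0.0502). Scaling every library to equal neuron marker levels raised the median log2 fold change of all genes to 0.48. On that scale Vgf had -0.87, which is -1.35 relative to the median gene (edgeR adjusted p = 0.161, in a fit with 0 genes called and 4396 at an unadjusted p under 0.05).

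**Figure D2:**
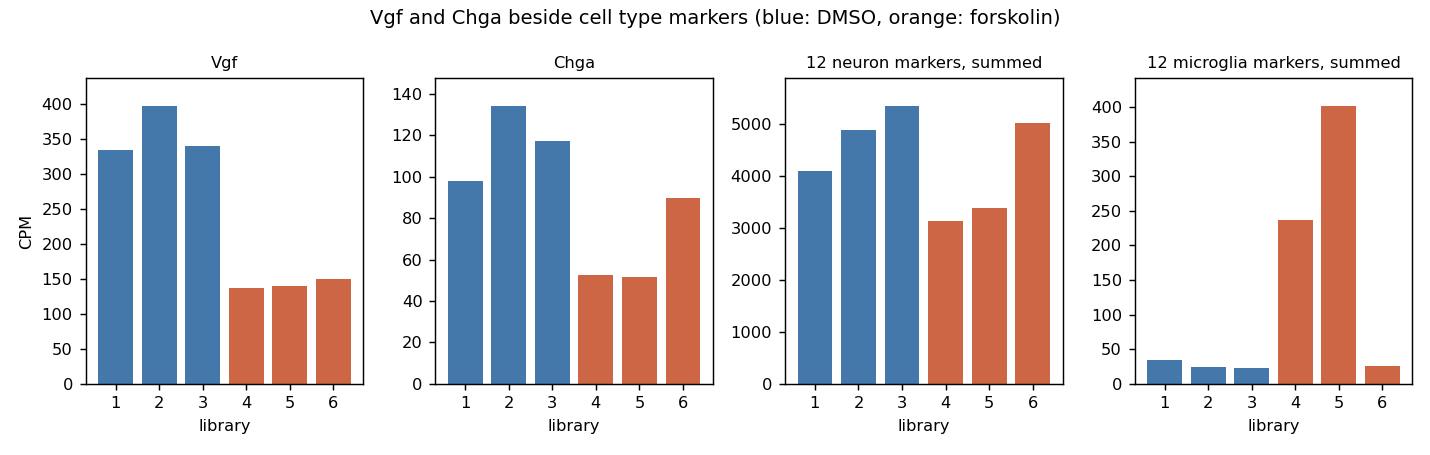
Levels in CPM (y axes, from 0) of Vgf, of Chga, and of 12 neuron and 12 microglia markers summed, in each library (x axis; blue DMSO, orange forskolin). Vgf is low in all 3 forskolin libraries, and Chga is lowest in libraries 4 and 5. The marker sums of library 6 (5006 and 25.1 CPM) lie within the range of the DMSO libraries. In library 6 the neuron sum combines 5 markers below every DMSO library and 5 above.

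Chga, the gene of chromogranin A, a prohormone and vesicle-forming protein, had 97.9, 134 and 117 CPM under DMSO and 52.7, 51.7 and 89.6 CPM under forskolin. The groups did not overlap, but library 6 was near the DMSO values. The difference of -0.85 ± 0.25 (SE) on the log2 scale did not pass the threshold (edgeR adjusted p = 0.139). Of the 10 genes, 3 (Vgf, Chga and Nptx1) had forskolin libraries all below the DMSO libraries. Over the whole table of tested genes the share without overlap was 26.5%, and 16.2% lay in this direction. At the GC content of Chga (58.4%) the GC trend was -0.18, -0.25 and -0.60 in libraries 4, 5 and 6, where Chga itself was at -1.13, -1.16 and -0.36 relative to its DMSO mean (log2). With the trend removed Chga had a log2 fold change of -0.45 and an edgeR adjusted p of 0.584. The gene lies at chr12:102554969-102565028.

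Chgb, the gene of chromogranin B, had 111, 140 and 127 CPM under DMSO and 85.3, 84.1 and 141 CPM under forskolin. Libraries 4 and 5 were below every DMSO library, and library 6 was above them all. The fitted log2 fold change was -0.28, with an interval of -0.82 to 0.25 (edgeR adjusted p = 0.475).

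Scg2, which codes for the precursor of secretoneurin, had 188, 249 and 261 CPM under DMSO and 163, 215 and 317 CPM under forskolin. Its forskolin libraries spanned the whole DMSO range, from below to above it. The log2 fold change was -0.0060 with an interval of -0.63 to 0.62 (edgeR adjusted p = 0.991). A rise of up to 1.53-fold thus lay within the interval. Scg2 lies at chr1:79434669-79440120 and Chgb at chr2:132781278-132795079.

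Scg3 (chr9:75643189-75684056) codes for a granin that binds chromogranin A and anchors it to the vesicle membrane. It had 282, 285 and 296 CPM under DMSO and 316, 333 and 287 CPM under forskolin. Its coefficient of variation was 2.65% in the DMSO libraries, against 9.70 to 45.4% for the other 9 genes, and 7.45% in the forskolin libraries, where only Vgf varied less (4.93%). Libraries 4 and 5 were above every DMSO library and library 6 was not. Its fitted log2 fold change was 0.12 ± 0.12 (SE), with an interval of -0.16 to 0.40 (edgeR adjusted p = 0.573), the narrowest of the 10.

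The balance between granin transcripts was compared within each library. The log2 ratio of Vgf counts to Scg2 counts was 0.83, 0.68 and 0.38 under DMSO but -0.25, -0.62 and -1.08 under forskolin. The ratio was lower in each forskolin library than in any DMSO library, with a mean difference of -1.28 and the smallest p-value that the exact two-sided permutation test allows with 3 against 3, 0.1. This was 1 of 4 such ratios, chosen after the values were seen (p = 0.133 after Benjamini-Hochberg adjustment over the 4, same exact permutation test). With the GC trend of both genes subtracted, an alternative chosen after the values were seen, the mean difference was -0.31 (exact permutation p = 0.1). Of the other 3, the log2 ratio of Pcsk2 to Scg5 differed by -0.19 (exact permutation p = 0.1), and those of Nptx1 to Nptx2 and Pcsk1 to Pcsk1n are given with these genes.

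Levels per transcript length, as CPM per kilobase of the longest annotated transcript (RPKM), put Vgf, Scg3 and Scg2 at the top. In the DMSO libraries Vgf was at 118 to 140 RPKM and Scg3 at 118 to 124 RPKM, and these ranges overlapped. Scg2 came next at 74.8 to 104 RPKM, followed without overlap by Chga at 52.0 to 71.2 RPKM. Nptx1, at 52.2 to 63.8 RPKM, overlapped Chga, and Chgb lay below both at 40.3 to 50.9 RPKM. Bdnf was at 7.67 to 11.4 RPKM, Pcsk1 at 3.22 to 5.68 RPKM and Nptx2 at 2.18 to 4.41 RPKM, the last 2 overlapping. Inhba was lowest, at 0.0538 to 0.149 RPKM. With forskolin Vgf came after Scg3 and Scg2 in each of the 3 libraries, at 48.3, 49.5 and 53.1 RPKM, while Scg3 held 120 to 140 RPKM and Scg2 64.8 to 126 RPKM.

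**Figure D3:**
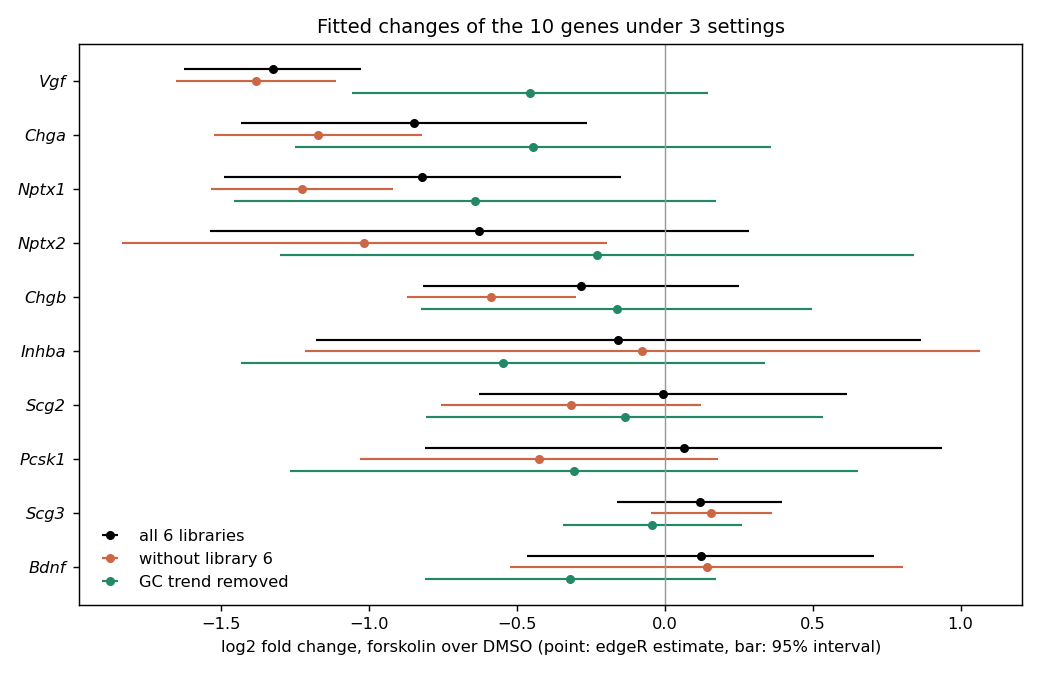
Log2 fold change of forskolin over DMSO (x axis; point, edgeR estimate; bar, 95% interval) for the 10 genes (y axis) with all 6 libraries in black, without library 6 in orange and with the GC trend removed in green. Vgf, Chga and Nptx1 have intervals below 0 with all libraries, and every interval with the GC trend removed includes 0.

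Bdnf (chr2:109674700-109727007) codes for brain-derived neurotrophic factor, which signals through the receptor TrkB and supports synaptic plasticity. It had 39.8, 32.7 and 48.8 CPM under DMSO and 31.99, 58.4 and 41.7 CPM under forskolin. The highest and the lowest of the 6 values were both forskolin libraries, and the groups overlapped. The log2 fold change had an interval of -0.47 to 0.71 around 0.12, so that changes of up to 1.63-fold upward lay inside it (edgeR adjusted p = 0.794). Bdnf is transcribed from several promoters, and the counts are summed per gene, so that a shift between its promoters could not be seen.

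Inhba, which codes for the subunit of activin A, a ligand of the TGF-β family, was barely detected. Its counts were 11, 25 and 34 under DMSO and 27, 27 and 18 under forskolin, or 0.706 ± 0.321 and 0.635 ± 0.138 CPM (SD, n = 3 each). The groups overlapped, and DMSO library 1 was the lowest of the 6. The interval of the log2 fold change ran from -1.18 to 0.87, the widest of the 10 (edgeR adjusted p = 0.849), and a rise of up to 1.82-fold lay inside it. Inhba lies at chr13:16011851-16031621.

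Nptx1 and Nptx2 code for secreted neuronal pentraxins, which cluster AMPA-type glutamate receptors at excitatory synapses; Nptx2 is the member known for induction by activity. Nptx1 lies at chr11:119538719-119547753 and Nptx2 at chr5:144545902-144557478. Nptx1 had 273, 333 and 288 CPM under DMSO and 119, 138 and 248 CPM under forskolin. All 3 forskolin values were below the DMSO values, library 6 by a small margin (the GC trend at Nptx1 was -0.03, -0.08 and -0.30 in libraries 4, 5 and 6, and Nptx1 was at -1.31, -1.10 and -0.26 relative to its DMSO mean, both log2), and the log2 fold change was -0.82 ± 0.28 (SE; edgeR adjusted p = 0.172). Nptx2 had 5.53, 11.2 and 8.58 CPM under DMSO and 3.40, 5.05 and 7.94 CPM under forskolin. The groups of Nptx2 overlapped, with library 6 above DMSO library 1, and the log2 fold change was -0.63 ± 0.38 (SE; edgeR adjusted p = 0.362). It was -0.34 without library 2, -0.38 without library 4 and -1.02 without library 6 (edgeR adjusted p = 0.776, 0.674 and 0.0617). The log2 ratio of Nptx1 to Nptx2 counts was 5.19 ± 0.38 under DMSO and 4.95 ± 0.18 under forskolin (SD, n = 3 each; exact two-sided permutation p = 0.5).

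Pcsk1, whose enzyme cuts prohormones and granins at pairs of basic residues, lies at chr13:75089826-75134861. Its level was 16.2, 24.3 and 28.6 CPM under DMSO and 15.3, 19.5 and 37.6 CPM under forskolin. Library 6 was the highest of the 6 and library 4 the lowest. Fitted on all libraries, the change was 0.06 ± 0.37 (SE), with an interval of -0.81 to 0.94 (edgeR adjusted p = 0.931). After both removal of the GC trend and omission of library 6, Pcsk1 was called lower, at -0.98 (edgeR adjusted p = 0.00806). That fit called 5 of the 10 genes, all lower (Vgf, Chga, Chgb, Nptx1 and Pcsk1), and 37.8% of all tested genes.

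The forskolin libraries differed among themselves over these genes. Library 4 was below every DMSO library in 8 of the 10 genes, library 5 in 5 and library 6 in 3, where over all tested genes the shares were 38.1%, 39.3% and 35.3%. Library 6 was above every DMSO library in 3 of the 10 (Chgb, Scg2 and Pcsk1), close to its share of 29.5% over all tested genes. Without library 6, edgeR called 4 of the 10 genes, Vgf, Chga, Chgb and Nptx1, all lower, where 33.6% of all tested genes were called. Their log2 fold changes were then -1.38, -1.17, -0.59 and -1.23 (edgeR adjusted p = 0.00286, 0.00405, 0.0139 and 0.00320). In libraries 4 and 5 the median log2 ratio of the 12 neuron markers to the DMSO mean was -0.82 and -0.86, and that of the tested microglia markers was 4.60 and 5.26. In library 6 these medians were 0.27 and -0.12. The part of cell composition in the lower levels of Chga, Chgb and Nptx1 was not tested. Without any other single library edgeR called 0 of the 10 genes, with 1 or 2 at an unadjusted p under 0.05.

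The genes whose pattern over the 6 libraries was closest to that of Vgf were Ttc9b and Cdk5r2, with root mean square differences of 0.058 and 0.075 in centred log2 CPM. Ttc9b fell from 39.0 ± 4.49 to 15.7 ± 0.45 CPM and Cdk5r2 from 35.2 ± 3.54 to 14.7 ± 1.18 CPM (SD, n = 3 each; edgeR adjusted p = 0.0204 and 0.0224). Their GC contents were 61.0% and 63.9%. For Bdnf the closest were Hnrnpa3 (0.102) and Lrp1b (0.116), for Nptx2 Gfra4 (0.146), and for Pcsk1 Dpp10 (0.112) and Gpr137c (0.117). For Inhba they were Mblac2 (0.172) and mt-Nd2 (0.210). None of these 7 was called by edgeR, and no measure here was over more than 6 libraries. As all these nearest genes, Ttc9b and Cdk5r2 included, were picked for closeness in pattern, their group differences and edgeR calls largely follow from that choice.

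The enzymes and vesicle proteins that work with these precursors were examined in a list of 14 genes, all tested. Of these, edgeR called 1 lower and 0 higher, where it called 1.34% of all tested genes lower. The median log2 fold change was -0.32. DESeq2 called 2 of the 14, both lower, where it called 10.9% of all tested genes. With limma and library quality weights 10 were called, all lower, where 41.9% of all tested genes were called. The gene called by edgeR was Ptprn, which codes for a membrane protein of dense-core vesicles. It had 235, 258 and 232 CPM under DMSO and 117, 131 and 154 CPM under forskolin (log2 fold change -0.85 ± 0.14 (SE), edgeR adjusted p = 0.0431). Ptprn has a GC content of 59.5%, and with the GC trend removed its log2 fold change was -0.39 (edgeR adjusted p = 0.522).

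The largest difference in the list was that of Pcsk1n, which codes for proSAAS, a granin-like inhibitor of the Pcsk1 convertase. It had 165, 186 and 123 CPM under DMSO and 28.7, 16.1 and 4.87 CPM under forskolin, so that the groups were far apart and library 6 was lowest. The log2 fold change was -3.25 ± 0.60 (SE), just outside the threshold (edgeR adjusted p = 0.0592). It was -3.05 with the GC trend removed and -2.66 with neuron marker scaling (edgeR adjusted p = 0.155 and 0.161). Without library 6 it was -2.83 (edgeR adjusted p = 0.00333) and with library 6 as the only forskolin library -4.98 (edgeR adjusted p = 0.0165). DESeq2 gave -3.25 (adjusted p = 5.91e-08). The log2 ratio of Pcsk1 to Pcsk1n counts was -3.35, -2.94 and -2.10 under DMSO and -0.91, 0.28 and 2.95 under forskolin, without overlap (exact two-sided permutation p = 0.1, the smallest possible).

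**Figure D4:**
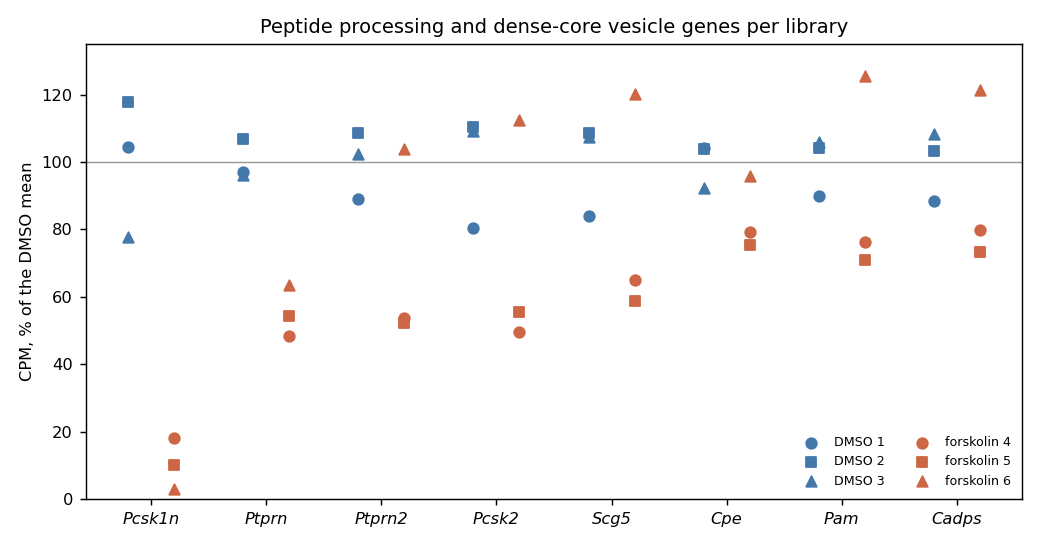
CPM as a percentage of the DMSO mean (y axis, from 0) for 8 genes of peptide processing and dense-core vesicles (x axis), with 1 point per library (blue DMSO, orange forskolin). Pcsk1n and Ptprn are low in all 3 forskolin libraries, whereas Pcsk2, Scg5, Pam and Cadps are low in libraries 4 and 5 and above the DMSO mean in library 6.

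Of the 14 processing genes, 7 were below every DMSO library in libraries 4 and 5 but not in library 6, against 16.3% of all tested genes, and 4 were below in all 3 (Pcsk1n, Ptprn, Furin and Hid1), against 16.2%. Furin and Hid1, named after their values were seen, had log2 fold changes of -0.45 and -0.50 (edgeR adjusted p = 0.273 and 0.127). Pcsk2, the other main neuronal prohormone convertase, had 77.5, 106 and 105 CPM under DMSO and 47.7, 53.4 and 108 CPM under forskolin (log2 fold change -0.47, edgeR adjusted p = 0.419). For Scg5, its chaperone, the log2 fold change was -0.30 (edgeR adjusted p = 0.562). Cpe, the carboxypeptidase that trims the cut peptides, had -0.26 (edgeR adjusted p = 0.400), and Cadps, which primes vesicles for release, had -0.13 (edgeR adjusted p = 0.745). In these 4 genes library 6 lay within or above the DMSO range.

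Among the receptors and partners of the secreted factors edgeR called 0 genes with all libraries. DESeq2 called 0 of 8 in the neurotrophin list, 2 of 12 in the activin list and 0 of 5 pentraxin partners, against 10.9% of all tested genes. In the same lists limma with library quality weights called 2, 4 and 2, against 41.9% of all tested genes. In the neurotrophin list 8 of 10 genes were tested and 0 were called by edgeR, with 1 (Sorcs2, named after its value was seen, at -0.43) at an unadjusted p under 0.05 and a median log2 fold change of -0.16. Ntrk2, which codes for TrkB, had 1217, 1069 and 1092 CPM under DMSO and 1488, 1252 and 955 CPM under forskolin (log2 fold change 0.13, edgeR adjusted p = 0.722). For Ngfr, the shared neurotrophin receptor gene, the log2 fold change was -0.20, for Sort1, which codes for a sorting receptor of the BDNF precursor, -0.11, and for the neurotrophin gene Ntf3 0.17 (edgeR adjusted p = 0.744, 0.691 and 0.743).

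The activin list had 12 of 13 genes tested and 0 called by edgeR, with 3 at an unadjusted p under 0.05, near the 22.3% of all tested genes, and a median of -0.00074. The log2 fold changes of the receptor genes Acvr1b and Acvr2a were -0.23 and 0.27, and that of Fst, which codes for the activin antagonist follistatin, was -0.26 (edgeR adjusted p = 0.233, 0.553 and 0.762). The 3 with a low unadjusted p, named after their values were seen, were Bambi, a decoy receptor gene, at 0.77, the inhibin subunit gene Inha at -0.82 and the receptor gene Acvr2b at -0.64 (edgeR adjusted p = 0.121, 0.123 and 0.223). In the activin list 5 of 12 genes had groups that did not overlap (Bambi higher; Inha, Acvr2b, Acvr1b and Inhbb, the last also named after its values were seen, lower), against 26.5% of all tested genes. All 5 pentraxin partners were tested and 0 were called by edgeR, with 0 at an unadjusted p under 0.05. Nptxr, the gene of the membrane-bound pentraxin receptor, had 654, 743 and 649 CPM under DMSO and 341, 384 and 692 CPM under forskolin (log2 fold change -0.53, edgeR adjusted p = 0.302). Like Chga and Nptx1 it was low in libraries 4 and 5, and in library 6 it was within the DMSO range. Gria4, an AMPA receptor subunit gene, had 0.07 (edgeR adjusted p = 0.898).

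Neuropeptide precursors, cargo of the same vesicles, were listed as 15 genes, of which 11 were tested. Of these edgeR called 1 higher and 0 lower, where it called 1.51% of all tested genes in either direction. DESeq2 called 0 higher and 1 lower, and limma with library quality weights 2 higher and 8 lower. Over all tested genes these tools called 10.9% and 41.9%. The median log2 fold change was -0.52, also with the gene called by edgeR at its lower bound. That gene was Trh, which codes for the precursor of thyrotropin-releasing hormone and was not called by DESeq2. Its counts were 2, 0 and 0 under DMSO and 36, 34 and 17 under forskolin (edgeR adjusted p = 0.0443). Trh passed the low-count filter only through the forskolin libraries. Its call, the only higher call of edgeR in the list, is therefore no support for a rise of the list. Against a floor of 3 counts in each DMSO library it was at least 8.22-fold higher, at a mean of 0.757 CPM. The edgeR adjusted p of Trh was 0.146 with the GC trend removed. Sst had 60.6, 163 and 137 CPM under DMSO and 21.1, 20.1 and 85.8 CPM under forskolin (log2 fold change -1.50, edgeR adjusted p = 0.233). Cck, named after its values were seen, had 197, 312 and 262 CPM under DMSO and 86.8, 77.3 and 183 CPM under forskolin, the only gene of the list that was lower without overlap (log2 fold change -1.15, edgeR adjusted p = 0.15002). With Trh it was 1 of 2 at an unadjusted p under 0.05. Npy had a log2 fold change of -0.37 and Adcyap1 of -0.86 (edgeR adjusted p = 0.323 and 0.284).

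Without library 6, where edgeR called 33.6% of all tested genes, 10 of 14 processing and vesicle genes were lower and 0 higher, and of 11 neuropeptide genes 6 were lower and 1 higher. In the same fit 1 of 8 neurotrophin genes was lower and 0 higher, 3 of 13 activin genes were lower and 1 higher, and 2 of 5 pentraxin partners were lower and 0 higher. The marker values of libraries 4 and 5 given above apply to these counts as well, and their part in them was not tested.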

How the data were processed

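The authors deposited raw counts per gene symbol, whole numbers with 1 column per library. Salmon, DESeq and the build GRCm38 are named in the submitters' processing notes, with no role or version; annotation and strand setting are not given in the sources used here. Without strand, reads of Bdnf, Inhba and Scg3 cannot be told apart from those of overlapping genes on the opposite strand. A table of the authors' own comparison, as deposited, lists for each gene a mean signal of normalised counts, a log2 fold change, its standard error, a test score and p-values. It was used only to look up the 10 genes and the pathway genes.

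Genes were kept with filterByExpr (minimum count 10, total 15), scaled with TMM factors and fitted with edgeR 4.0.16 (glmQLFit, glmQLFTest, group as the only term) on the whole table in R 4.3.3. Benjamini-Hochberg adjustment ran over 16233 genes, with a threshold of 0.05. The standard error is the absolute log2 fold change over the root of F. CPM are scaled to the TMM library size, RPKM are CPM per kilobase of the longest GENCODE M21 transcript, which also gave GC content (97.1% of tested genes). The GC trend was a smoothing spline with 5 degrees of freedom per library, removed as an offset. Log2 ratios per library used a prior count of 2. The code was tested on simulated data.

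Alternatives were DESeq2 1.42.0, limma 3.58.1 voom with library quality weights, other scalings, no filter, GC correction and leaving out libraries. All 10 genes were named. Pathway genes were named where called or where on a fixed list of names (others are marked as named after their values were seen), and 2 nearest genes in pattern, at a mean of at least 5 CPM, for 5 of the 10. 1 of these nearest genes is not reported here. Pam and Ptprn2 were added to the plot of processing genes after their values were seen. Count ratios within a library had 0.5 added to each count. The 10 genes and the gene lists were chosen with earlier results of these data known.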

Additional observations from a re-analysis of the deposited data

How the results depend on the processing

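The main result, 1 of the 10 genes called (Vgf), 245 genes called in all and 2 of 50 tested pathway genes, changed with several settings. DESeq2 called 2 of the 10, 1775 genes in all and 5 pathway genes, and limma with library quality weights 5, 6795 and 28. RLE factors gave 137 genes in all and 0 pathway genes. With neuron marker scaling or the GC trend removed all 3 counts were 0. With the GC trend removed and library 6 left out they were 5, 6396 and 31. With libraries 4 and 5 left out, a choice made after seeing the data, they were 0, 94 and 1. Leaving out 1 library at a time gave 0 to 4, 0 to 5698 and 0 to 24, the upper values without library 6 and 0 without any other. Library size alone and no low-count filter kept 1 of the 10 called. Vgf stayed lower in all 15 alternatives (log2 fold change -1.43 to -0.46) and past the threshold in 7, and Chga, Nptx1 and Nptx2 also kept their direction in all 15. No paired analysis was possible because the groups share no replicate numbers.

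The sign of 6 of the 10 genes turned in some setting. Some of these turns were shifts of all genes and were absent relative to the median gene: Scg2 at 0.0160 with DESeq2, 0.0159 with RLE factors and 0.00812 without a filter (-0.02, -0.02 and -0.08 relative to the median), Pcsk1 at -0.0215 with library size alone (0.06), Scg2 at 0.404, Chgb at 0.120 and Inhba at 0.381 with neuron marker scaling (-0.08, -0.36 and -0.10, all genes being moved to a median of 0.48), and Scg3 at -0.0422 with the GC trend removed and -0.0383 with library 6 left out as well (0.0090 and 0.09). The others held relative to the median too. Bdnf was -0.320 and -0.418 in these 2 GC settings. Pcsk1 was -0.307 and -0.978 there (called lower in the latter, edgeR adjusted p = 0.00806), and -0.365 with quality weights. Without libraries 4 and 5 Scg2 was 0.487 and Chgb 0.199. With 1 library left out the ranges were -0.101 to 0.305 for Bdnf, -0.426 to 0.306 for Pcsk1, -0.318 to 0.193 for Scg2 and -0.462 to 0.113 for Inhba. The cause was not tested. Depth limits Inhba and Trh, with at most 36 counts per library.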
